A study of Mus musculus with 10 samples.

Results

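The Obox genes (oocyte specific homeobox) were followed in mouse morulae whose Mettl3 mRNA had been targeted from the zygote on. Members were taken by gene symbol: Obox1, Obox2, Obox3, Obox5 and Obox6, which are 5 of the 24411 genes listed for every library. The study compared 2 groups of ICR embryos made by in vitro fertilization of superovulated oocytes. Mettl3-ASO zygotes were microinjected 3 to 6 h after insemination with an antisense oligonucleotide against Mettl3, and ASO-Control zygotes with an oligonucleotide without a target. Both groups were cultured in KSOM medium to the morula stage at 72 h, and each of the 5 libraries per group pooled 10 whole embryos. The labels place replicates 3 to 5 of each group in batch 2 and give replicates 1 and 2 no batch, and these are called untagged here.

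Obox genes encode homeodomain transcription factors and lie in tandem on mouse chromosome 7, next to Crx and Crxos, to which they are related. In mouse, Obox1, Obox2, Obox5 and Obox7 are known as transcripts stored in the oocyte, and Obox3 as a transcript made by the embryo when its genome is first switched on at the 2-cell stage. Obox6 is known from cleavage stages and has been used as an added factor in reprogramming to pluripotency. Mettl3 is the catalytic part of the complex that places N6-methyladenosine on mRNA.

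The homeobox, the segment that encodes the DNA-binding domain, is shown for each member because it is the part that defines the family and sets Obox6 apart from the other members. The homeobox of each gene was read from GENCODE transcripts on GRCm38. In the lines for Obox3, Obox5 and Obox1, capitals mark bases that differ from Obox6 at the same position of the 180. In the line for Obox2, capitals mark bases that differ from Obox1.
Obox6: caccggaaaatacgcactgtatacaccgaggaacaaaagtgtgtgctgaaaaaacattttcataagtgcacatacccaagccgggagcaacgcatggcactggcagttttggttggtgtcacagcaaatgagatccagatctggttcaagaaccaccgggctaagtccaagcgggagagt
Obox3: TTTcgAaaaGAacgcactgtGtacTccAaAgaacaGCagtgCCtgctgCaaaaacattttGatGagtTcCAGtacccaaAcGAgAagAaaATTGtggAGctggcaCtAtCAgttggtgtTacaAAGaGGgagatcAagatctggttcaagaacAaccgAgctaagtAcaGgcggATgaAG
Obox5: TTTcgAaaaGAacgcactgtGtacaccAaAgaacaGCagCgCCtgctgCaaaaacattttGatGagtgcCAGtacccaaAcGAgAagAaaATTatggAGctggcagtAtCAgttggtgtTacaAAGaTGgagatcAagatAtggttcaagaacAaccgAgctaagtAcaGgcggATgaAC
Obox1: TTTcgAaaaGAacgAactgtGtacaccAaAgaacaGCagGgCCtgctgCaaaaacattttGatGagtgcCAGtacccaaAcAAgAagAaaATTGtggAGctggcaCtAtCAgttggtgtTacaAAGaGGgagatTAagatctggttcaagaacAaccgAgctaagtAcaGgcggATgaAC
Obox2: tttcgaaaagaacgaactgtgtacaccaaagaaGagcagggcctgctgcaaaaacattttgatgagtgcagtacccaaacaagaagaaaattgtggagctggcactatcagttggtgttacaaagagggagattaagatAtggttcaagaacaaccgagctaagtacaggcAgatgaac

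The homeobox of Obox6 lies at chr7:15833909-15834517 on the minus strand, that of Obox3 at chr7:15626284-15626933 on the minus strand, that of Obox5 at chr7:15757941-15758580 on the plus strand and that of Obox1 at chr7:15555567-15556192 on the plus strand. Each is interrupted by an intron that is not printed. Obox6 shared 71.7% of the 180 bases with Obox3, 72.8% with Obox5 and 71.1% with Obox1. Obox1 and Obox3 shared 96.1%, Obox3 and Obox5 95.6%, and Obox1 and Obox5 95.6%. Obox6 thus stood apart in this segment, while Obox1, Obox3 and Obox5 were near copies of each other there. Over the whole coding sequence, with gaps counted as differences, identity was 57.2% between Obox1 and Obox3 and 81.7% between Obox3 and Obox5. The coding sequences differ in length, with 612 bases in Obox1, 1005 in Obox3 and 873 in Obox5, so gaps lower these values. They cannot be set against those of the homeobox.

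Obox2 is the copy closest to Obox1. Its stretch at chr7:15397250-15397875 on the plus strand held 179 bases, of which 176 equalled those of the Obox1 homeobox, with 3 substitutions and 1 base fewer. A complete homeobox was not found in the annotated coding frame of Obox2, which has 151 codons, against 347 in Obox6, 335 in Obox3, 291 in Obox5 and 204 in Obox1.

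The tandem copies set how well each level can be measured. Of all 50-base windows of 1 transcript per gene, 51.5% of those of Obox1 also occurred in Obox2, and 42.6% of those of Obox2 in Obox1. For Obox3, 40.3% of windows occurred in 10 genes outside the family, 7 of them Obox3 pseudogenes, and at most 1.09% in any other gene of the family. For Obox5, 12.0% of windows occurred in any other gene. The transcript used had 1831 bases for Obox5 and 1459 for Obox2, against 1312 and 1327 listed for the libraries. The shares of these 2 genes may thus differ for the transcripts that were measured. For Obox6, none occurred in another Obox gene and 5.02% occurred in the pseudogene Obox6-ps1. Obox6 is therefore the member least exposed to reads shared between copies, and Obox1 and Obox2 are the pair whose split is least certain. No annotated RefSeq gene overlapped the span of a member, so counting without strand would not add reads from an annotated antisense partner.

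The 5 genes span 451 kb of chromosome 7 (GRCm38.p6). Obox2 lies at 15388851 to 15398545, Obox1 at 15547257 to 15556846, Obox3 at 15625306 to 15639777, Obox5 at 15750370 to 15759274 and Obox6 at 15833250 to 15839679. RefSeq annotates 45 Obox pseudogenes on the chromosome, 38 of them related to Obox4 and 7 to Obox3. None of them was among the genes listed for the libraries, so they could not be analysed here.

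The injected oligonucleotide acted on its target in every library. Mettl3 had 0, 0, 0, 0.04 and 0.03 FPKM in Mettl3-ASO replicates 1 to 5, against 10.64, 12.68, 6.58, 7.77 and 6.62 FPKM in ASO-Control replicates 1 to 5. Expected counts, the authors' estimate of reads per gene, summed to 9905830 to 13530284 in the 4 untagged libraries and to 21412857 to 32327283 in the 6 libraries of batch 2, so low genes were counted less precisely in the untagged libraries. Defining genes of cumulus and granulosa cells were near 0, with a summed level over 10 genes of 0.31 to 1.38 TPM in Mettl3-ASO and 0.09 to 0.63 TPM in ASO-Control and with Amh, Cyp19a1, Inhba and Has2 at 0 in every library. The 6 genes of late male germ cells summed to 0.28 to 3.28 TPM in Mettl3-ASO and 0.49 to 2.32 TPM in ASO-Control. Of 13 tested genes of the morula and its lineages, 3 were higher in Mettl3-ASO, 5 were lower and 5 were not called, where 25.4% of all tested genes were higher and 49.4% were called either way. Because the libraries are bulk pools, fewer expressing cells and less RNA per cell cannot be told apart.

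Obox6 was the abundant member of the family in morulae of both groups, and it was about 3-fold higher in Mettl3-ASO. It had 456.14, 1151.84, 1249.48, 1070.58 and 1074.69 FPKM in Mettl3-ASO replicates 1 to 5, against 159.37, 179.86, 389.52, 427.79 and 484.53 FPKM in ASO-Control replicates 1 to 5. Replicate 1 of Mettl3-ASO was the low library of its group and fell between the ASO-Control libraries of batch 2, while all other Mettl3-ASO libraries were above every ASO-Control library. The group means were 1001 ± 313 FPKM in Mettl3-ASO and 328.2 ± 149 FPKM in ASO-Control (SD, n = 5 each).

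On the TPM scale, which sets each library to a common sum, Obox6 had 492.25, 1289.70, 1227.01, 1092.52 and 1075.38 TPM in Mettl3-ASO, against 166.38, 198.08, 375.25, 436.08 and 482.22 TPM in ASO-Control. The groups did not overlap on this scale, although the lowest Mettl3-ASO library and the highest ASO-Control library lay close together. In FPKM, where Obox6 overlapped, 15.0% of the genes averaging 1 FPKM or more were higher in all Mettl3-ASO libraries. The share in TPM was not counted, so the separation in TPM is not read further. By TPM, Obox6 ranked between 154 and 377 of all genes in Mettl3-ASO libraries and between 403 and 948 in ASO-Control libraries.

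The fitted change of Obox6 was 1.70 ± 0.26 on the log2 scale (SE), a 3.25-fold rise, with an adjusted p of 0.000206 in the quasi-likelihood test of edgeR. In the same test 25.4% of the 9522 genes with a mean of at least 1 FPKM were higher in Mettl3-ASO and 49.4% were called in either direction, so a call alone does not set a gene apart in these libraries. The size of the rise was less common: 6.51% of the tested genes were called and rose by at least as much. Among the 1328 genes with an ASO-Control mean of at least 100 FPKM, 13.3% were called higher, and 9 genes, or 0.678%, were called with a rise at least as large as that of Obox6, which is 1 of those 9.

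**Figure D1:**
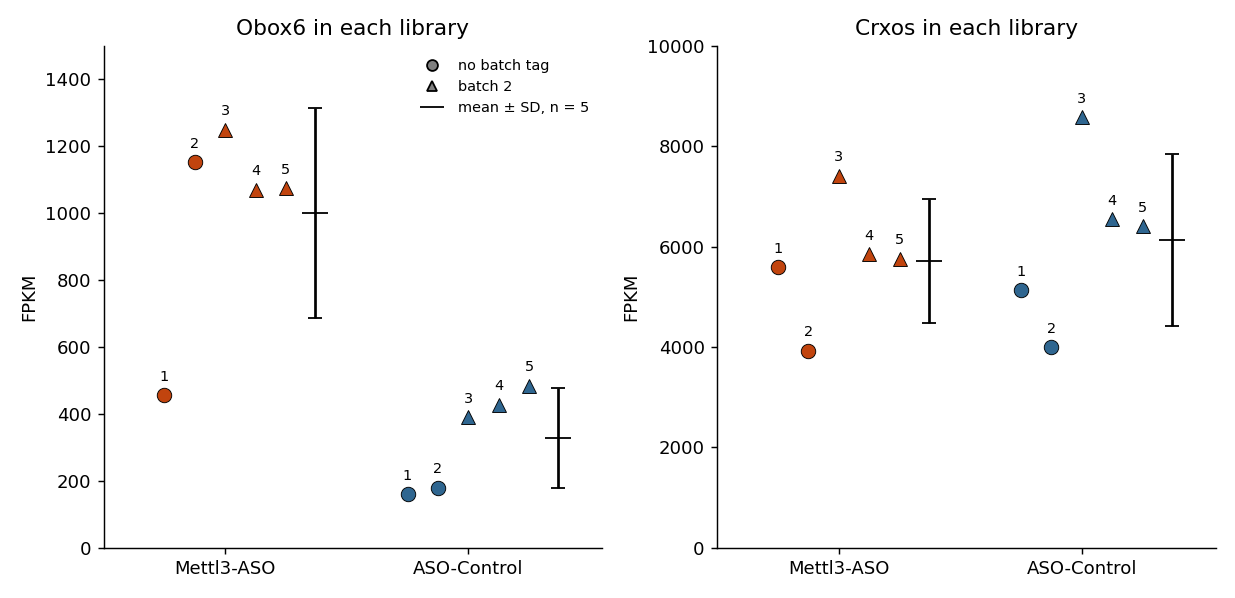
FPKM of Obox6 (left) and of its neighbour Crxos (right) in each library, Mettl3-ASO beside ASO-Control; numbers are replicates, circles are untagged and triangles batch 2 libraries, and bars are mean ± SD of 5. Obox6 averaged 1001 FPKM in Mettl3-ASO and 328.2 FPKM in ASO-Control with replicate 1 of Mettl3-ASO at 456.14, whereas Crxos averaged 5707 FPKM in Mettl3-ASO and 6132 FPKM in ASO-Control.

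The level of Obox6 also moved with the batch in ASO-Control. In Mettl3-ASO the batch 2 libraries averaged 1132 FPKM and the untagged ones 804 FPKM, a ratio of 1.41. That ratio came from untagged replicate 1, at 456.14 FPKM. Untagged replicate 2, at 1151.84 FPKM, lay within the batch 2 range of 1070.58 to 1249.48 FPKM. In ASO-Control the batch 2 libraries averaged 433.9 FPKM and the untagged ones 169.6 FPKM, a ratio of 2.56. Within each batch every Mettl3-ASO library was above every ASO-Control library of that batch. The share of all genes that did so was not counted, so this separation is not read further. The fitted rise was 1.36 ± 0.13 on the log2 scale in batch 2 alone (2.57-fold; adjusted p = 6.43e-05) and 2.25 ± 0.48 in the untagged libraries alone (4.77-fold; adjusted p = 0.0428), both by edgeR. The interaction of group and batch, batch 2 minus untagged, was −0.92 ± 0.47 (edgeR adjusted p = 1), so the 2 sizes were not shown to differ.

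Obox3, the member known for transcription at genome activation, was near 0 in ASO-Control morulae and present at a low and uneven level in Mettl3-ASO. It had 0.21, 9.30, 2.05, 6.44 and 0.91 FPKM in Mettl3-ASO replicates 1 to 5, from 4, 129, 78, 232 and 27 expected counts. ASO-Control replicates 1 to 5 had 0, 0, 0.10, 0.05 and 0.63 FPKM, from 0, 0, 4, 2 and 28 expected counts. In 4 of the 5 Mettl3-ASO libraries the level was above every ASO-Control library, and the exception was again replicate 1, which was below ASO-Control replicate 5. Of the windows of Obox3, 40.3% occurred outside the family, so a part of its reads could belong to other copies. The Obox3 pseudogenes among these copies were not listed for the libraries, so no reads could be shared out to them.

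The mean of Obox3 was 3.782 ± 3.92 FPKM in Mettl3-ASO and 0.156 ± 0.268 FPKM in ASO-Control (SD, n = 5 each), so the spread among Mettl3-ASO libraries was as large as their mean. The fitted log2 change was 4.34 ± 1.11 (20.25-fold; edgeR adjusted p = 0.00614). This fit, and those below with a library left out or in batch 2 alone, covered genes averaging 1 FPKM or more. Obox3 reached that mean only through its Mettl3-ASO libraries. Without that filter the change over the 10 libraries was 4.31, and the gene was called too. The size rested in part on single libraries: without ASO-Control replicate 5 the change was 6.10 (adjusted p = 0.00223), and without Mettl3-ASO replicate 2 it was 3.58 (adjusted p = 0.00495). In batch 2 alone it was 3.51 ± 0.96 (adjusted p = 0.0156). In the untagged libraries the Mettl3-ASO pair held 133 counts, or 5.68 CPM, and the ASO-Control pair held 0, which taken as fewer than 3 counts for the pair allows 0.122 CPM, so Obox3 was at least 46.5-fold higher there. Of the 133 counts, 129 came from replicate 2. Replicate 1 alone, with 4 counts or 0.296 CPM, was 2.42-fold above that limit, with the error of its own 4 counts left out. In those 4 libraries edgeR did not call the gene among the genes averaging 1 FPKM or more (adjusted p = 0.0985). It called the gene in the fit without that filter (adjusted p = 2.12e-11). The SE was 2.77 with the filter and 1.28 without it, although the Mettl3-ASO libraries held 4 and 129 counts. The smaller p-value is therefore not read as a measure of spread among libraries. The fold limits given here cover the counting error of the ASO-Control pair only.

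Obox5, known as an oocyte transcript, was low in both groups and about 5-fold higher in Mettl3-ASO. It had 1.15, 1.27, 0.90, 3.03 and 2.18 FPKM in Mettl3-ASO replicates 1 to 5, against 0.36, 0.30, 0.45, 0.32 and 0.20 FPKM in ASO-Control replicates 1 to 5. No Mettl3-ASO library fell as low as any ASO-Control library, a separation seen in 9.73% of all genes with at least 1 count and in 15.0% of the genes averaging 1 FPKM or more, which Obox5 joined only through its Mettl3-ASO libraries. The expected counts behind these levels were 17, 14, 27, 86 and 51 in Mettl3-ASO and 5, 4, 14, 11 and 7 in ASO-Control.

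The fitted log2 change of Obox5 was 2.33 ± 0.47 among genes averaging 1 FPKM or more (5.04-fold; edgeR adjusted p = 0.00144). Without that filter it was 2.27 ± 0.61 (edgeR adjusted p = 0.00122). With the filter it was 2.62 ± 0.62 in batch 2 alone (edgeR adjusted p = 0.00825). With 4 untagged libraries the change was 1.80 and was not called (edgeR adjusted p = 0.263). The interaction with batch was 0.79 ± 1.02 (edgeR adjusted p = 1).

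Obox1 and Obox2, both known as oocyte transcripts, gave no call. Obox1 had 0, 0.70, 1.11, 0.14 and 2.32 FPKM in Mettl3-ASO replicates 1 to 5, against 0.24, 0.58, 0.41, 0.35 and 0.31 FPKM in ASO-Control replicates 1 to 5. The Mettl3-ASO libraries ranged more widely and lay on both sides of the ASO-Control libraries. The 0 in Mettl3-ASO replicate 1 allows up to 0.222 CPM at 3 counts of its total.

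Obox2 had 0.20, 0.27, 1.24, 0.53 and 0.83 FPKM in Mettl3-ASO replicates 1 to 5, against 0, 0.60, 0.37, 0.51 and 0.34 FPKM in ASO-Control replicates 1 to 5. The groups overlapped here too, and the 0 in ASO-Control replicate 1 allows up to 0.235 CPM. Both genes were under the mean of 1 FPKM set for testing. In the fit over all 19442 genes with at least 1 count, the log2 change of Obox1 was 0.96 ± 0.77 (edgeR adjusted p = 0.387) and that of Obox2 was 0.54 ± 0.79 (edgeR adjusted p = 0.637). These errors leave both a fall and a severalfold rise possible.

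Because reads of Obox1 and Obox2 are hard to split, their counts were also summed. The pair had 0.222, 1.01, 2.44, 0.726 and 3.22 CPM in Mettl3-ASO, against 0.235, 1.27, 0.806, 0.904 and 0.681 CPM in ASO-Control. The sum overlapped between groups as the single genes did. Other splits of the shared reads were not tested.

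**Figure D2:**
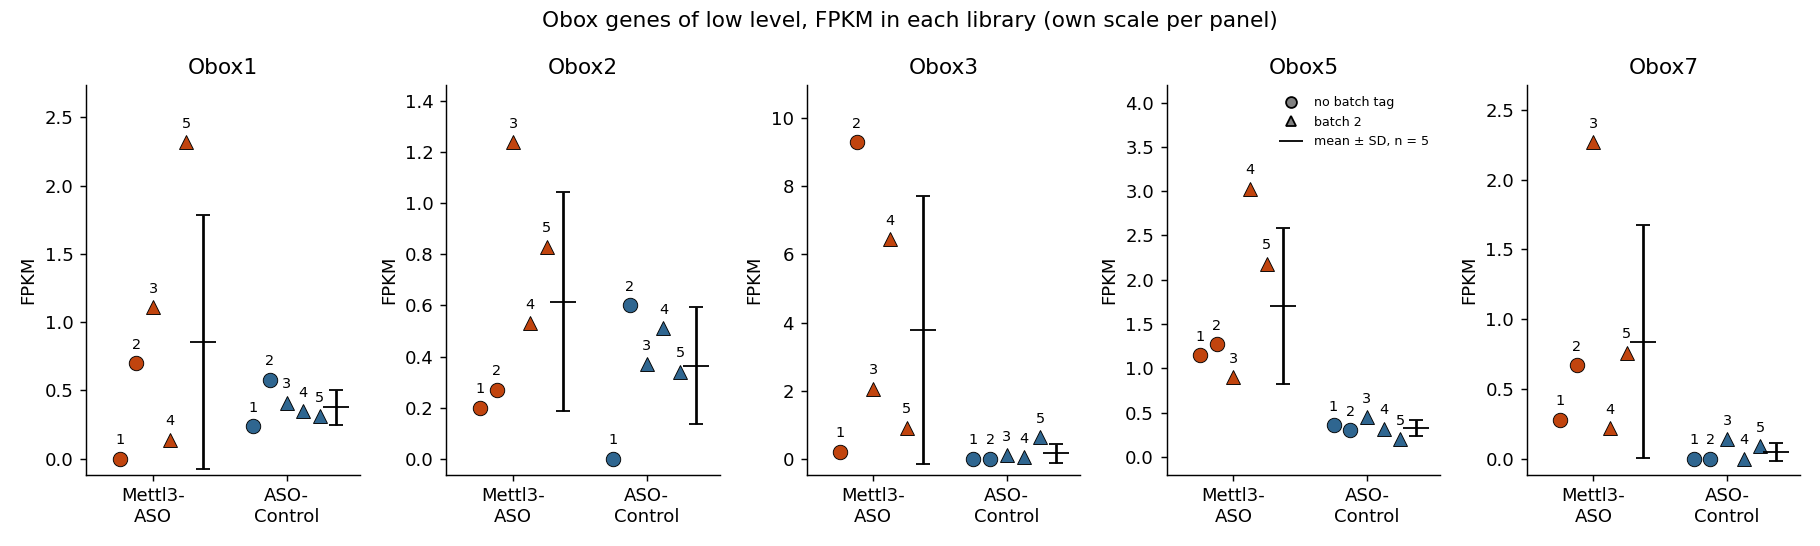
FPKM of Obox1, Obox2, Obox3, Obox5 and Obox7 in each library, Mettl3-ASO beside ASO-Control, each panel with its own scale; numbers are replicates, circles are untagged and triangles batch 2 libraries, and bars are mean ± SD of 5. Obox5 and Obox7 libraries do not overlap between groups, Obox3 overlaps through Mettl3-ASO replicate 1 (0.21) and ASO-Control replicate 5 (0.63), and Obox1 and Obox2 overlap widely.

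Obox7, the one other gene of this name in the tables, is known as an oocyte transcript, like Obox1, Obox2 and Obox5. It had 0.28, 0.67, 2.27, 0.22 and 0.76 FPKM in Mettl3-ASO replicates 1 to 5, against 0, 0, 0.14, 0 and 0.09 FPKM in ASO-Control replicates 1 to 5. The groups did not overlap, as was the case for 9.73% of all genes with at least 1 count, and the level was at most 65 counts in a library. In the edgeR fit on genes kept by filterByExpr, its log2 change was 3.98 ± 0.99 (adjusted p = 0.00566), where 22.1% of genes were called higher. Of its windows 12.3% occurred in Obox5 and 8.19% outside the family, so a part of its reads could belong to other copies.

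Over the family, 3 of the 5 members were higher in Mettl3-ASO in the fit without a filter, none was lower and 2 were not called. In that fit 16.2% of genes were higher and 30.2% were called in either direction. Its SEs were 0.13 for Obox6 and 0.49 for Obox3, against 0.26 and 1.11 with the FPKM filter. Its p-values are therefore not read as a measure of spread among libraries. The edgeR fit on genes kept by filterByExpr called the same 3 members, where 22.1% of genes were higher. Its adjusted p-values were 0.00591 for Obox3, 0.00271 for Obox5 and 0.000202 for Obox6. Obox3 and Obox5 reached the mean of 1 FPKM only through the Mettl3-ASO libraries, and a gene that passes in that way had to differ, so the count over the filtered genes is not read further. The middle one of the 5 changes was that of Obox6, at 1.65 on the log2 scale in the fit without a filter, against a median of 0.18 over all genes in that fit. Over the 9522 filtered genes the median was 0.01.

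**Figure D3:**
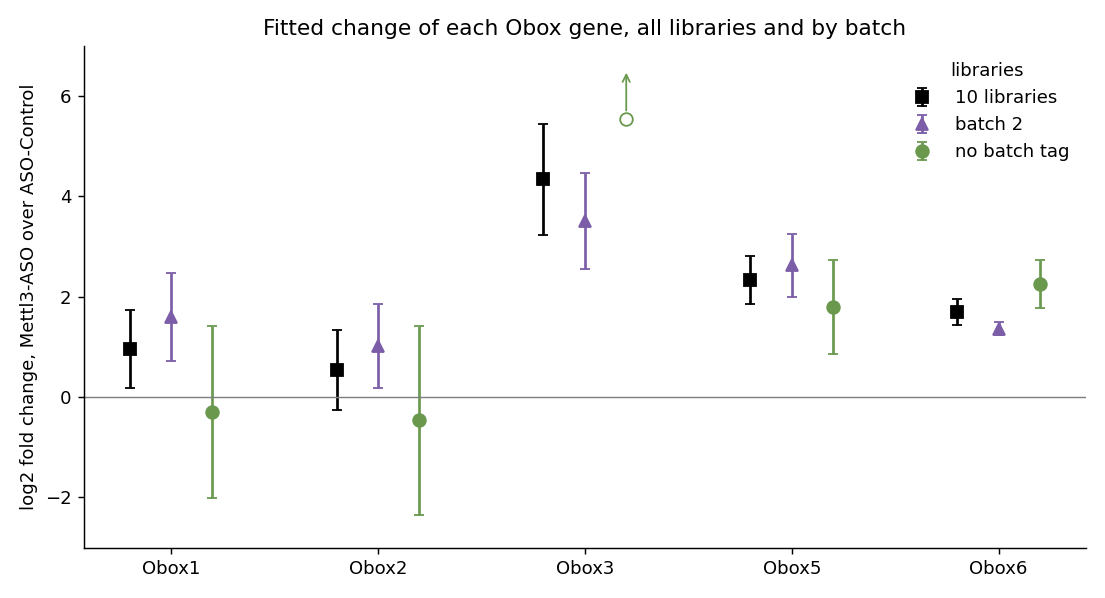
Fitted log2 change of each Obox gene, Mettl3-ASO over ASO-Control, with SE bars, for 10 libraries (squares), batch 2 (triangles) and untagged libraries (circles). The open circle is the lower bound for Obox3, whose untagged ASO-Control libraries held 0 counts. It uses the summed counts of the untagged Mettl3-ASO pair, 129 of 133 from replicate 2, and does not cover the spread between those libraries. For replicate 1 alone the bound was 2.42-fold. Obox6 (1.70), Obox5 (2.33) and Obox3 (4.34) lie above 0 in every set, while Obox1 and Obox2 lie on both sides of it.

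The order of levels within the family was compared per transcript length, in TPM. In Mettl3-ASO, Obox6 averaged 1035 ± 317 TPM, followed by Obox3 at 4.026 ± 4.34, Obox5 at 1.764 ± 0.88, Obox1 at 0.866 ± 0.929 and Obox2 at 0.624 ± 0.41 TPM (SD, n = 5). The neighbours after Obox6 did not differ beyond their spread. In ASO-Control, Obox6 averaged 331.6 ± 142 TPM, followed by Obox1 at 0.388 ± 0.15, Obox2 at 0.374 ± 0.247, Obox5 at 0.336 ± 0.0888 and Obox3 at 0.156 ± 0.268 TPM, and again only Obox6 stood clear of its neighbour. Obox6 made up 99.0% to 99.7% of the summed TPM of the 5 members in every library.

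Without Obox6, the other 4 members summed to 1.69, 12.92, 5.20, 10.4 and 6.24 TPM in Mettl3-ASO, against 0.63, 1.64, 1.28, 1.24 and 1.48 TPM in ASO-Control. The sums did not overlap between groups, and their means differed 5.81-fold. How often sums of other genes separate in this way was not counted, so the separation is not read further. Obox3 alone accounted for 4.026 TPM of the mean sum of 7.28 TPM in Mettl3-ASO and for 0.156 TPM of 1.254 TPM in ASO-Control.

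Crxos, a related homeobox gene 42.9 kb beyond Obox6 and among the most abundant transcripts here, served as a comparison at the same locus. It had 5590.68, 3926.69, 7409.25, 5853.49 and 5754.77 FPKM in Mettl3-ASO replicates 1 to 5, against 5132.05, 3994.96, 8574.42, 6548.15 and 6407.97 FPKM in ASO-Control replicates 1 to 5. The groups overlapped throughout, and the fitted log2 change was −0.15 ± 0.13 (edgeR adjusted p = 0.343). Crx lies 26.3 kb beyond Obox6 and encodes a photoreceptor transcription factor. It averaged 0.34 ± 0.194 FPKM in Mettl3-ASO and 0.08 ± 0.0644 FPKM in ASO-Control. Its mean was under the 1 FPKM set for testing, and no fitted change is given for it. On that side Snord23 was at 0 in every library. On the other side the nearest listed genes lay far off, beyond Obox7. Sult2a7, at 896 kb from the members, was at 0 as well. Vmn1r90, at 827 kb, and Nlrp5-ps, at 766 kb, averaged 0.486 and 0.542 FPKM in Mettl3-ASO and 0.156 and 0.104 FPKM in ASO-Control. Nlrp5-ps did not overlap between groups (0.33 to 0.83 against 0.03 to 0.15 FPKM), as was the case for 9.73% of all genes with at least 1 count.

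Homeobox genes of the oocyte and cleavage embryo outside the family did not move one way. Of 15 such genes listed, 9 were tested, and 3 were higher in Mettl3-ASO, 3 were lower and 3 were not called, with a median log2 change of −0.64. These shares were near those of all tested genes, of which 25.4% were higher and 49.4% were called either way, and 2 of the 3 higher genes are one measurement. These are Duxbl2 and Duxbl3, copies with identical listed values, which averaged 10.68 ± 2.55 FPKM in Mettl3-ASO and 4.744 ± 1.71 FPKM in ASO-Control (log2 change 1.16 ± 0.25; edgeR adjusted p = 0.00229). Cphx1, a homeobox gene of the oocyte and early embryo, averaged 6.43 ± 1.94 FPKM in Mettl3-ASO and 23.69 ± 12.1 FPKM in ASO-Control (log2 change −1.89 ± 0.42; edgeR adjusted p = 0.0024). The pluripotency factors of this list divided, with Nanog higher by 1.07 ± 0.27 and Pou5f1 lower at −0.64 ± 0.15 on the log2 scale (edgeR adjusted p = 0.00507 and 0.00332).

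Factors reported to act in mouse genome activation, as Obox genes do, changed in both directions. Of 20 tested genes, 11 were higher in Mettl3-ASO, 2 were lower and 7 were not called, with a median log2 change of 0.46. In the test 25.4% of all genes were higher and 49.4% were called either way. Klf17, a Krüppel-like factor that reached a mean of 1 FPKM only through the Mettl3-ASO libraries, averaged 14.37 ± 9.25 FPKM in Mettl3-ASO and 0.516 ± 0.319 FPKM in ASO-Control (log2 change 4.78 ± 0.54; edgeR adjusted p = 2.14e-05). Nfya, a subunit of the CCAAT-binding factor NF-Y, averaged 8.01 ± 0.753 FPKM in Mettl3-ASO and 2.434 ± 0.523 FPKM in ASO-Control (log2 change 1.67 ± 0.19; edgeR adjusted p = 2.68e-05). Another subunit, Nfyb, was lower (log2 change −0.71 ± 0.14; edgeR adjusted p = 0.00123). Kdm5b, a histone demethylase, averaged 43.77 ± 6.75 FPKM in Mettl3-ASO and 20.43 ± 3.94 FPKM in ASO-Control (log2 change 1.07 ± 0.15; edgeR adjusted p = 8.91e-05).

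Dux, a homeobox transcription factor of the 2-cell embryo, was under the level for testing and did not follow Obox3 library by library. It had 2.78, 0, 0.16, 0.30 and 0 FPKM in Mettl3-ASO replicates 1 to 5, against 0.09, 0.23, 0.02, 0 and 0 FPKM in ASO-Control replicates 1 to 5. The Mettl3-ASO library with the most Dux was replicate 1, which had the least Obox3 and Obox6 of its group, and replicate 2, with the most Obox3, held none.

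Genes of the 2-cell stage gave the widest contrast beside the family. The 24 tested members of the list were all called higher in Mettl3-ASO, with a median log2 change of 7.5, but just 4 of them had an ASO-Control mean of at least 1 FPKM, so passing the filter already required a difference in the others. Their summed level was 1520, 3291, 2191, 4260 and 4452 TPM in Mettl3-ASO replicates 1 to 5, against 6.15, 16.48, 17.51, 12.01 and 25.86 TPM in ASO-Control replicates 1 to 5. The order of libraries by this sum matched that by Obox6 or Obox3 in part. Replicate 1 of Mettl3-ASO was lowest in its group on all 3, and replicate 5 of ASO-Control was highest in its group on all 3. Replicate 5 of Mettl3-ASO had the highest sum of its group but, at 0.91 FPKM, the lowest Obox3 after replicate 1, and replicate 3 of Mettl3-ASO had the lowest sum after replicate 1 with the highest Obox6 in FPKM. Replicate 4 of ASO-Control had the lowest sum of its group after replicate 1 with the highest Obox6 after replicate 5. Gm5662, Tcstv3 and Tdpoz4 had the smallest p-values, with log2 changes of 8.24, 7.67 and 8.19 (edgeR adjusted p = 6.6e-08, 3.75e-07 and 1.71e-06).

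**Figure D4:**
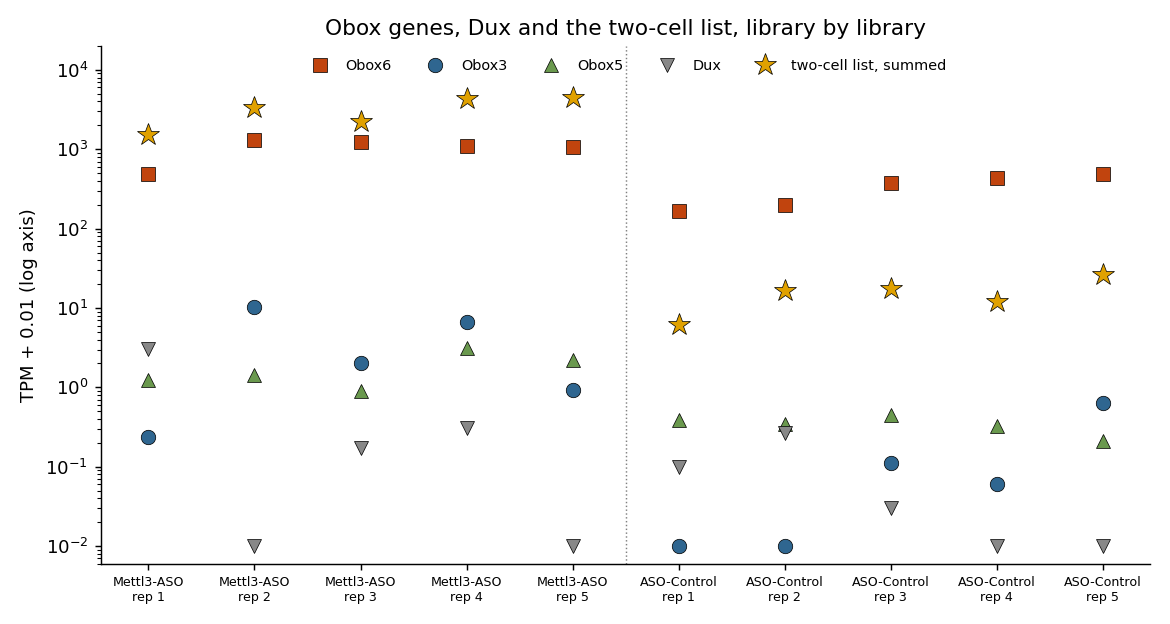
TPM + 0.01 on a log axis in each library, Mettl3-ASO replicates 1 to 5 left and ASO-Control replicates 1 to 5 right, for Obox6, Obox3, Obox5, Dux and the summed list of 2-cell genes; points at 0.01 are 0 TPM. Replicate 1 of Mettl3-ASO has the lowest Obox6, Obox3 and 2-cell sum of its group (1520 TPM) and the highest Dux.

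Oocyte-deposited genes, the class to which Obox1, Obox2 and Obox5 belong, were mostly too low to test. Of 21 genes 8 were tested, 5 were higher in Mettl3-ASO, none was lower and 3 were not called, with a median log2 change of 0.80, where 25.4% of all tested genes were higher. Oosp1, one of the 5, reached a mean of 1 FPKM only through the Mettl3-ASO libraries. Zp3, a protein of the egg coat, averaged 7.32 ± 1.37 FPKM in Mettl3-ASO and 1.51 ± 0.73 FPKM in ASO-Control (log2 change 2.26 ± 0.29; edgeR adjusted p = 5.92e-05). Npm2, a histone chaperone of the egg, averaged 4.39 ± 0.895 FPKM in Mettl3-ASO and 1.52 ± 0.513 FPKM in ASO-Control (log2 change 1.48 ± 0.34; edgeR adjusted p = 0.00335). Dppa3, a maternal factor that also continues in the morula, had a log2 change of 0.62 ± 0.09 (edgeR adjusted p = 0.000175).

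Genes of the morula and its lineages changed in both directions in the same libraries. Among those chosen after their values were seen, Krt18, an epithelial keratin of the outer cells, averaged 38.98 ± 41.1 FPKM in Mettl3-ASO and 254.6 ± 188 FPKM in ASO-Control (log2 change −2.71 ± 0.38; edgeR adjusted p = 0.000105), and Gata3, a trophectoderm factor, averaged 5.136 ± 6 FPKM in Mettl3-ASO and 18.17 ± 7.57 FPKM in ASO-Control (log2 change −2.19 ± 0.37; edgeR adjusted p = 0.000377). Of the same list Tead4, at 0.17 ± 0.13, Tfap2c, at −0.16 ± 0.14, and Cdh1, at −0.32 ± 0.17 on the log2 scale, were not called (edgeR adjusted p = 0.274, 0.362 and 0.132). The part of embryo stage or pace of development in the Obox levels was not tested.

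The genes whose profiles over the 10 libraries were nearest to each member were found by the root mean square difference of log2(FPKM + 1) after centring each gene on its own mean. For Obox6 they were Nipal1 at 0.300, Rab2b at 0.319 and Nkiras1 at 0.324, each with a lower level than Obox6. Their changes were 1.69, 1.56 and 1.69 on the log2 scale, and a change near that of Obox6 follows from the choice by profile. Nipal1 averaged 51.2 ± 13.9 FPKM in Mettl3-ASO and 16.09 ± 4.93 FPKM in ASO-Control. For Obox3 they were Rhox3h at 0.501, the pseudogene Alms1-ps2 at 0.523 and Pramel3 at 0.565, so its nearest profiles lay farther off than those of Obox6. For Obox5 they were Arhgef12 at 0.169, F2 at 0.188 and Igip at 0.199, where the low level of Obox5 itself keeps differences small. Own deviations of the members from their means were 1.03 for Obox6, 1.17 for Obox3 and 0.567 for Obox5 on the same scale.

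The start regions of Obox1, Obox3 and Obox5 are shown because the copies also share sequence there, although Obox1 gave no call and the other 2 were higher. RefSeq windows of 300 bases (250 before to 50 after the start, GRCm38.p6) were at hand for 4 of the 5 members, all but Obox6. The motif TATATAA, searched on both strands, occurred in the windows of Obox1, Obox3 and Obox5, in no such window of Obox2, and in 3.24% of all 32851 promoters. It lay 19 bases before the start of Obox1, 30 before that of Obox3 and 31 before that of Obox5. The stretches of 77 bases that end in it, with the motif in capitals, read as follows.
Obox3: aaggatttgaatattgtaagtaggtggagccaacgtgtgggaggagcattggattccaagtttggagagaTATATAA
Obox5: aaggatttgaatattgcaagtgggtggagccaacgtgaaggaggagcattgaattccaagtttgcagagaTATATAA
Obox1: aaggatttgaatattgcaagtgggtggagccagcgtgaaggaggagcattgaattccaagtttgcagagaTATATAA

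These stretches lie at chr7:15639801-15639877 on the minus strand for Obox3, chr7:15750269-15750345 on the plus strand for Obox5 and chr7:15547168-15547244 on the plus strand for Obox1. Against Obox5, 76 of 77 bases were identical in Obox1 and 71 of 77 in Obox3. The motif GGATTA, or TAATCC on the other strand, which homeodomains of the Crx type are known to bind, occurred in the window of Obox3, 168 bases before the start, and in no window of Obox1, Obox2 or Obox5. It occurred in 7.06% of all promoters. Both matches describe letters in these windows alone.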

How the data were processed

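RNA was sequenced from 10 libraries of pooled mouse morulae. Per the submitters' processing notes, STAR 2.7.10, RSEM 1.3.3 and build mm10 were used; strand setting and annotation release are not given in the sources used here. Deposited by the authors were, per library, expected counts (estimated reads per gene, with reads that match several genes shared out), TPM values scaled to a common sum, and FPKM values scaled to transcript length and depth. Reads shared between listed Obox copies would therefore be assigned by estimation. Of the Obox genes, only Obox1 and Obox2 had expected counts with fractions, such as 30.29 and 37.71 in Mettl3-ASO replicate 3. Those of Obox3, Obox5, Obox6 and Obox7 were whole numbers in every library. The Obox pseudogenes were not among the listed genes, so no reads could be shared out to them.

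Expected counts were rounded and passed to edgeR 4.0.16 in R 4.3.3 for its quasi-likelihood test, with TMM scaling and terms for batch and group, over the 9522 genes that averaged 1 FPKM or more, with Benjamini-Hochberg adjustment over all of them and a threshold of 0.05. Obox1 and Obox2 took their values from the fit on 19442 genes with at least 1 count. DESeq2 1.42.0, limma 3.58.1, other scalings, filters and pseudocounts, single batches and each library left out were alternatives. The script was tested on simulated data. Standard errors were derived from the log2 change and its F statistic (absolute change over the root of F).

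Members, lists and alternatives were chosen with earlier results of these data known. Named genes are the members, Obox7, Mettl3, the 3 tested genes with the smallest p in each of 4 lists, the 3 nearest profiles of each tested member and the 3 neighbours on each side; Dux, Nanog, Pou5f1, Nfyb, Krt18, Gata3, Tead4, Tfap2c, Cdh1, Oosp1 and the cumulus genes at 0 were added after their values were seen. Sequences are from GENCODE transcripts and RefSeq promoters on GRCm38.

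Nothing in the labels ties libraries to separate fertilizations, so the p-values describe spread among libraries that may be technical. In each of the 8 library pairs within a group and batch, the counts differed by more than sampling noise (lowest chi-square per degree of freedom 24.7), so all libraries were counted separately. Replicate numbers come from the titles. Libraries with the same number deviated together (correlation 0.19 to 0.31), each library best with its own number. With 2 untagged libraries a group, replicates 1 and 2 give the same correlation by construction (0.3145), so they count as a single match. The main fit did not use a pairing by number, and a fit with a replicate block was an alternative.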

Additional observations from a re-analysis of the deposited data

Results flagged for a closer look

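In Mettl3-ASO, replicate 1 had 456.14 FPKM of Obox6, far below the other 4 libraries at 1070.58 to 1249.48 FPKM. In ASO-Control, replicate 5 had 0.63 FPKM of Obox3, far above the other 4 at 0 to 0.10 FPKM. In Mettl3-ASO, replicate 3 had 2.27 FPKM of Obox7, far above the other 4 at 0.22 to 0.76 FPKM. In each case the gap to the nearest library exceeded the 95% critical value of 0.71 of Dixon's test for 5 samples. The 3 cases came from 12 groups tested, and chance alone marks about 1 group in 20.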

How the results depend on the processing

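Obox6 kept its direction and its call under all 25 alternatives, with adjusted p-values of up to 0.0428. In the 4 untagged libraries alone, Obox3 (log2 change 9.40, edgeR adjusted p = 0.0985) and Obox5 (1.80, adjusted p = 0.263) lost their calls. Without the FPKM filter Obox3 kept its call there (edgeR adjusted p = 2.12e-11), although its Mettl3-ASO libraries held 4 and 129 counts. In the same 4 libraries Obox1 (−0.30) and Obox2 (−0.46) turned in sign, and 596 genes were called, against 4704 with 10 libraries. That comparison has 2 libraries a group. Leaving out each library in turn gave log2 changes of 1.31 to 1.83 for Obox6, 2.06 to 2.53 for Obox5, 3.58 to 6.10 for Obox3, 0.29 to 1.39 for Obox1 and 0.24 to 1.37 for Obox2, with 4194 to 4800 genes called, and changed no call of these 5 genes. With a replicate block for the pairing of libraries, the changes were 1.62 for Obox6, 2.26 for Obox5, 4.42 for Obox3, 0.38 for Obox1 and 0.78 for Obox2, 5246 genes were called, and no call of the members changed. DESeq2 gave 5.12 for Obox3, and limma on log2(FPKM + 1) gave 1.63, a scale that understates low genes. A mean of at least 5 FPKM left Obox6 alone among the members, so the other 4 have no value there. Summing the 5 members moved the ratio of mean TPM to 3.13 from 3.12 for Obox6 alone. Depth limits the low members: Obox1 and Obox2 had at most 49.41 and 37.71 expected counts in a library, and in ASO-Control Obox3 and Obox5 averaged 6.8 and 8.2.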
